A study of Mus musculus with 15 samples.

Results

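This account concerns the genes for Wnt ligands, their receptors and the secreted proteins that tune them, in mouse optic tissue grown from ES cells. Its members were the 52 symbols of the Wnt, Fzd, Sfrp, Dkk, Rspo, Kremen and Ror families with Frzb, Wif1, Wls, Porcn, Lrp5, Lrp6 and Ryk, and each was found as 1 entry among the 23244 entries of the expression table. Explants were taken from SFEBq aggregates, balls of ES cells that form eye-like epithelium in serum-free floating culture, of a single ES cell line, EB5 Rx::GFP+/-, in which GFP reports the eye-field gene Rx. The GFP+ epithelium was lifted out at Day 10 with forceps and either collected (Day 10 Rx::GFP+) or cultured on to Day 12 or Day 15. The +Wnt groups received the GSK3 inhibitor CHIR99201 (3 uM for 24 hours, then 1 uM), which stimulates β-catenin signaling below the level of ligands and receptors. The +Fgf groups received 5 ng/ml bFgf together with 10% FBS, so that the growth factor and the serum cannot be told apart. There were 3 biological replicates in each of the 5 groups, no unstimulated tissue was analysed here at Day 12 or Day 15, and the parent ES cells of every group had been kept in medium that also contained CHIR99201.

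Wnt proteins are lipid-modified by Porcn, carried to the cell surface by Wls and bound by Frizzled receptors together with the co-receptors Lrp5 and Lrp6, or by Ror1, Ror2 and Ryk. When the canonical branch is active, β-catenin is stabilised and acts with TCF and LEF factors in the nucleus. Sfrp proteins, Frzb and Wif1 bind ligands outside the cell, Dkk1 blocks Lrp5 and Lrp6 with the help of Kremen proteins, and R-spondins keep Frizzled receptors at the surface by engaging Lgr receptors and the ligases Rnf43 and Znrf3. In the developing eye, canonical Wnt signaling is known for its role in pigment epithelium and in the ciliary margin, and the cortical hem of the forebrain is a well-known source of Wnt and R-spondin transcripts.

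Values are CPM, the deposited library-scaled read counts, in which 1 read amounted to 0.0620 to 0.0764 CPM and libraries held 12556998 to 16175450 reads. The labels were set against markers. Of 7 neural retina progenitor genes, all measurable, the summed level was 2154 to 2282 CPM in Day 12 +Fgf libraries and 2301 to 2379 CPM in Day 15 +Fgf libraries, against 823 to 881 CPM and 593 to 633 CPM in the +Wnt libraries. The 8 pigment epithelium genes summed to 990.1 to 1324 CPM at Day 10, 345 to 389 CPM in Day 12 +Fgf and 1324 to 1711 CPM in Day 12 +Wnt. At Day 15 they summed to 327 to 395 CPM in +Fgf and 5195 to 6718 CPM in +Wnt tissue, but the late markers Rpe65 and Best1 stayed under 1 CPM in all 15 libraries. The 6 markers of ganglion cells and early neurons, taken as a sum, were not confined to +Fgf tissue. They summed to 243 to 263 CPM in Day 12 +Fgf and 456 to 638 CPM in Day 12 +Wnt. At Day 15 the sums were 1290 to 1360.1 CPM and 963 to 1204 CPM. Single markers were split: at Day 12, 3 were called higher and 3 lower in +Fgf than in +Wnt tissue (limma, adjusted p below 0.05). At Day 15, 3 were called higher and 1 lower. Of all genes tested, 51.5% and 68.7% were called. By staining for the protein of 1 of these 6 markers, the study saw Pou4f2 at Day 15 after Fgf but not after Wnt stimulation. It described its own RNA levels of that gene as generally matching the staining. The sum of 6 transcripts is a different measure and does not bear on that match.

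The region just before the start of transcription is shown for 4 members with large differences between the stimulations, a pair in each direction, as reference sequence from RefSeq (GRCm38.p6, the 250 bases before the annotated start, read along the gene). Rspo1 and Wnt8b were higher under Wnt stimulation, and Sfrp2 and Wnt9b under Fgf stimulation. None of the 4 windows overlaps an annotated exon, and none holds CTTTGAT or CTTTGAA, the core letters that TCF and LEF factors are known to bind, on either strand.
Rspo1 (chr4:124986180-124986429, + strand): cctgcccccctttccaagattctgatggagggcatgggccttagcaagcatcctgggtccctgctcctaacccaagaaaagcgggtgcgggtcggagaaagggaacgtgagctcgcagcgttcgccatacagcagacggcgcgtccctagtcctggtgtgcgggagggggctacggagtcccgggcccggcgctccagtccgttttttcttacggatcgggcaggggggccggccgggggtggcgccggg
Wnt8b (chr19:44493222-44493471, + strand): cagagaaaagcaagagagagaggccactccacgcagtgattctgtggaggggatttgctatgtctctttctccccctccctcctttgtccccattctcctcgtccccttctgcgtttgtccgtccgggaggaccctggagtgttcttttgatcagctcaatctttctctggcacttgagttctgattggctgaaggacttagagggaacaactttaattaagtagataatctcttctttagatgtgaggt
Sfrp2 (chr3:83766071-83766320, + strand): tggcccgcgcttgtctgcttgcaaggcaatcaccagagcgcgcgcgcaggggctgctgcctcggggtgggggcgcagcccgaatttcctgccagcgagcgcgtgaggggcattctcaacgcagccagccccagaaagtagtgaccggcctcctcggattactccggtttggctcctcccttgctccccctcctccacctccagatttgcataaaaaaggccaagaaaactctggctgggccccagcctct
Wnt9b (chr11:103749822-103750071, - strand): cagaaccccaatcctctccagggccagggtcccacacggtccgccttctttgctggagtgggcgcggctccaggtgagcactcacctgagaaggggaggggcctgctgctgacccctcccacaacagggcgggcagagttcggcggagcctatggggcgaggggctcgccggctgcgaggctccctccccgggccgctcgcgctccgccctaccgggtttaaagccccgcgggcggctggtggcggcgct

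RefSeq windows were at hand for 34 of the 52 members, 37 windows in all, and 3 of these (8.11%) held 1 of the 2 letter strings, against 7.48% of all 32851 windows of the same length. The matches lay upstream of Dkk1, Wnt11 and Wnt5b, and 30 bases around each are given with the match in capitals. The Dkk1 match begins 117 bases before the RefSeq start and lies within an exon of another annotated Dkk1 transcript. The Wnt5b match begins 71 bases before a start, and the Wnt11 match, 51 bases before a start, reads CTTTGAT on the opposite strand. The windows of the members were richer in G and C than windows in general, with a median of 66.8% against 52.4%.
Dkk1 (chr19:30549595-30549624, - strand): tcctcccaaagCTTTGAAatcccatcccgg
Wnt11 (chr7:98835050-98835079, + strand): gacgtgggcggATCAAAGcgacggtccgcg
Wnt5b (chr6:119449439-119449468, - strand): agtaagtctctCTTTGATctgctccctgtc

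Most of the family was measurable. Of the 52 members, 45 reached the level needed for testing (1 CPM in at least 3 libraries), and 29 were above 1 CPM in every library. The 7 that did not reach the level for testing were Wnt2, Wnt8a, Wnt10b, Sfrp4, Sfrp5, Dkk4 and Kremen2, whose highest values in any library lay between 0.191 CPM (Wnt2) and 1.72 CPM (Sfrp5). Rspo4 and Wnt7a would not have passed without the Day 15 +Wnt libraries, the group where both were highest. Outside that group Rspo4 reached 1 CPM only in Day 12 +Wnt replicate 2 (1.04 CPM), and Wnt7a only in Day 15 +Fgf replicate 2 (1.72 CPM). Transcripts of Wnt5a, Wnt7b, Wnt11, Fzd5, Fzd6, Sfrp2, Kremen2 and Rspo3 overlap an annotated gene on the opposite strand, and whether the counting used strand is not given in the sources used here. Differences are given as log2 of the CPM plus 0.3, on which 1 is a doubling and which understates the change of genes at low levels. Each comes with the SE of limma's model over all 15 libraries and 13845 testable entries, and a gene was called at a Benjamini-Hochberg adjusted p below 0.05.

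At Day 12, members called against Day 10 were mostly lower after Fgf and mostly higher after Wnt stimulation. From Day 10 to Day 12 +Fgf, 10 members rose, 23 fell and 12 did not pass, where 55.7% of all genes tested were called (27.9% higher, 27.8% lower), and the median member changed by -0.36 against -0.0021 over all genes. From Day 10 to Day 12 +Wnt, 18 rose, 9 fell and 18 did not pass, where 60.2% of all genes were called (30.6% higher, 29.6% lower), with a median of 0.22 against 0.0086. Between Day 12 and Day 15, 4 members rose and 27 fell in +Fgf tissue, where 57.1% of all genes were called (27.2% higher, 29.9% lower), with a median of -0.81 against -0.019. In +Wnt tissue 12 rose and 15 fell, where 68% of all genes were called (32.5% higher, 35.5% lower), with a median of -0.14 against -0.021. The libraries did not overlap for 35 members between Day 10 and Day 12 +Fgf (61% of all genes) and for 31 between Day 10 and Day 12 +Wnt (64.3%). The same held for 31 members between Day 12 and Day 15 in +Fgf tissue (63.7%) and for 33 in +Wnt tissue (72.8%). In bulk tissue, fewer cells of a type and less RNA per cell cannot be told apart. Without Day 12 +Fgf replicate 3, 24 rather than 33 members were called against Day 10.

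**Figure D1:**
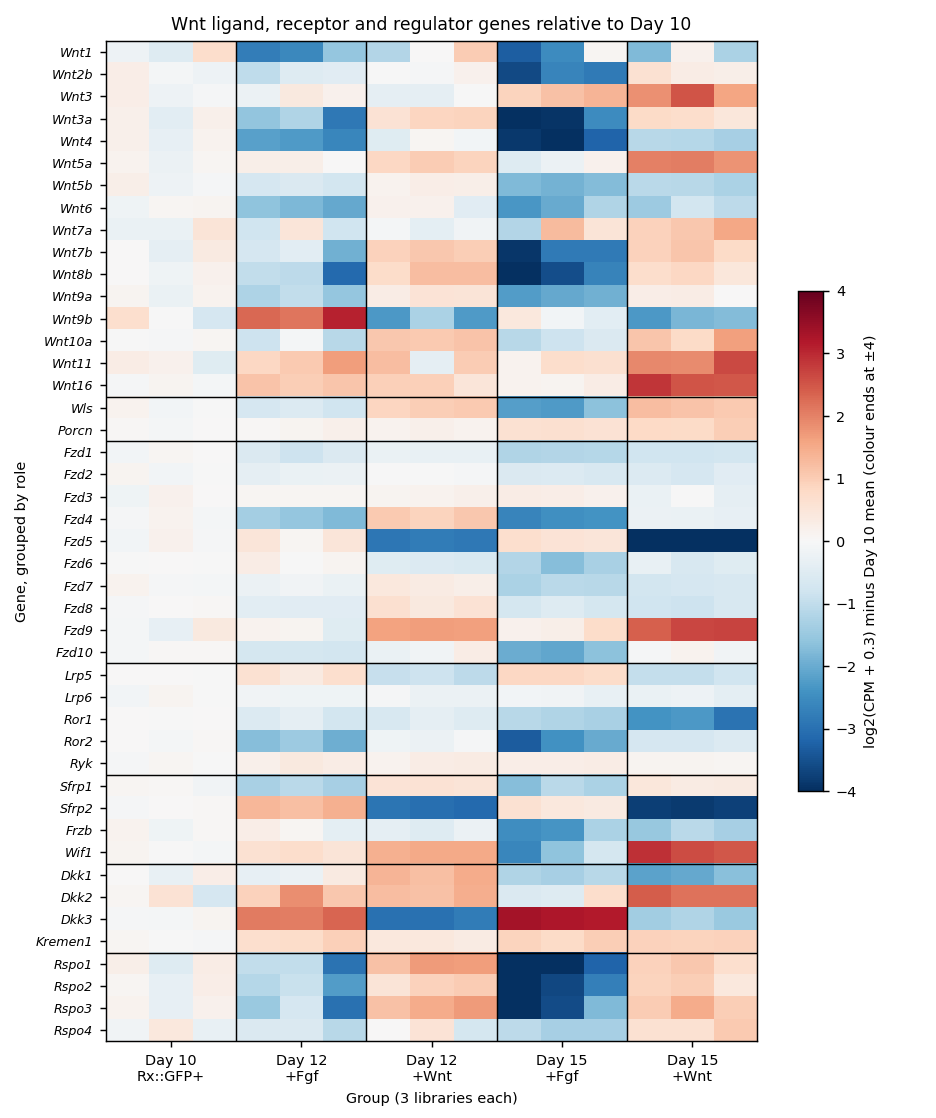
Level of each of the 45 testable members in each of the 15 libraries, as log2(CPM + 0.3) minus the mean of the 3 Day 10 libraries; rows are grouped by role (ligands, ligand processing, Frizzled receptors, other receptors, Sfrp and Wif1, Dkk and Kremen1, R-spondins) and colours end at 4 either side of 0. In the Day 15 +Fgf columns 27 members had fallen from Day 12 +Fgf, and Dkk3 stands out as red there and blue in the Day 15 +Wnt columns.

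The comparison of the stimulations at equal age addressed how the signaling equipment of retina-directed and pigment-directed tissue differs. At Day 12, 7 members were higher and 26 lower in +Fgf than in +Wnt tissue, where 51.5% of all genes were called (26.3% higher, 25.2% lower), and 22 members differed by at least 1 on the log2 scale, where 12.7% of all genes did. At Day 15, 9 were higher and 30 lower, where 68.7% of all genes were called (38% higher, 30.6% lower), and 28 differed by at least 1 (19.7% of all genes). The median member was lower in +Fgf by 0.69 at Day 12 and by 0.98 at Day 15, beside medians over all genes of -0.0021 and 0.051. The libraries of the stimulations did not overlap for 35 members at Day 12 (60.4% of all genes) and for 37 at Day 15 (73.1%). Every comparison with Day 10 shares the same 3 control libraries, so the counts for the stimulations are given side by side and are not independent.

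**Figure D2:**
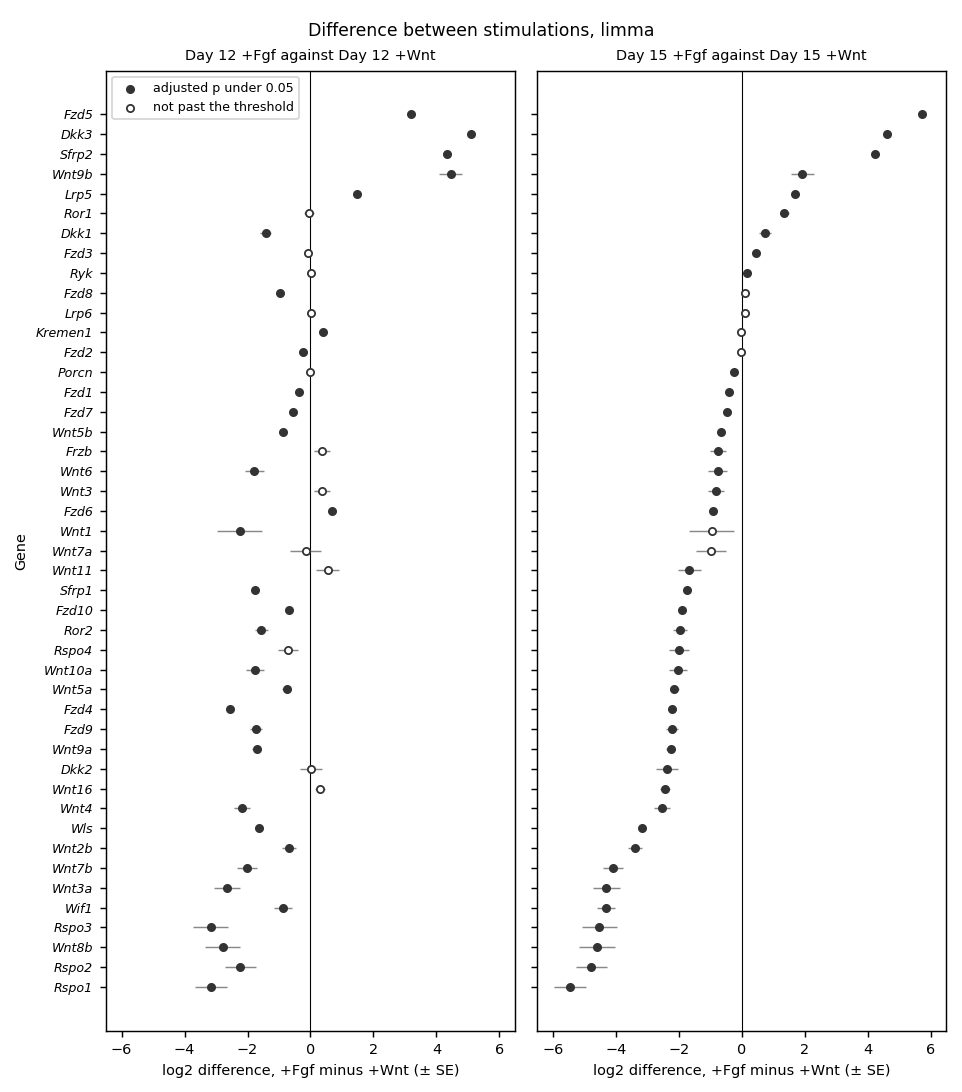
log2 difference of +Fgf minus +Wnt at Day 12 (left) and Day 15 (right) for the 45 testable members, ordered by the Day 15 value, with bars for the SE of limma's model over 3 libraries a group; filled points passed an adjusted p of 0.05. Fzd5, Dkk3, Sfrp2, Wnt9b and Lrp5 lie on the +Fgf side at both ages, and the R-spondins 1 to 3, Wnt8b, Wnt3a, Wnt7b and Wls on the +Wnt side at both ages.

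Among the 19 ligand genes, 16 were testable, and 1 was higher and 13 lower in Day 15 +Fgf than in Day 15 +Wnt tissue, beside 38% and 30.6% of all genes. Wnt3a, Wnt7b and Wnt8b, which are known from the cortical hem and other dorsal brain regions, moved alike. Wnt8b stood at 55.1, 48.5 and 61.1 CPM in the Day 10 libraries, at 27.6, 26.1 and 6.01 CPM in Day 12 +Fgf and at 91.3, 129 and 129.7 CPM in Day 12 +Wnt. The Day 15 values were 0.811, 4.4 and 8.34 CPM in +Fgf and 89.1, 96.5 and 74.4 CPM in +Wnt tissue. Wnt7b stood at 79.9, 61.3 and 101 CPM at Day 10, at 49.4, 59.0 and 20.6 CPM in Day 12 +Fgf and at 151, 169 and 155 CPM in Day 12 +Wnt. By Day 15 it stood at 5.01, 11.0 and 11.0 CPM in +Fgf and 151, 169.6 and 133 CPM in +Wnt tissue. For both genes every +Fgf library lay below every +Wnt library of its age. Wnt3a, a strong activator of the canonical branch, stood at 9.68, 6.22 and 9.7 CPM at Day 10, at 2.6, 3.5 and 0.894 CPM in Day 12 +Fgf and at 12.6, 15.5 and 15.6 CPM in Day 12 +Wnt, and by Day 15 at 0.0737, 0.275 and 1.2 CPM in +Fgf against 14.5, 13.7 and 11.5 CPM in +Wnt tissue.

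The Day 15 difference was -4.60 ± 0.57 for Wnt8b (limma, Benjamini-Hochberg adjusted p = 1.86e-06), -4.10 ± 0.32 for Wnt7b and -4.30 ± 0.42 for Wnt3a. All 3 had fallen already by Day 12 in +Fgf tissue (-1.72 ± 0.57, -1.01 ± 0.32 and -1.88 ± 0.42 against Day 10). For Wnt8b and Wnt7b the call at Day 12 depended on single libraries. Without Day 12 +Fgf replicate 3 it was -1.02 for Wnt8b (limma, Benjamini-Hochberg adjusted p = 0.115) and -0.55 for Wnt7b (limma, Benjamini-Hochberg adjusted p = 0.0838). Without Day 10 replicate 3 the Wnt7b value was -0.83 (limma, Benjamini-Hochberg adjusted p = 0.0607). In +Wnt tissue Wnt7b rose from Day 10 to Day 12 by 1.00 ± 0.32, a call lost without Day 10 replicate 2 (0.81, limma, Benjamini-Hochberg adjusted p = 0.0631). For Wnt3a and Wnt8b the same change was 0.78 ± 0.42 and 1.07 ± 0.57, neither past the threshold in limma although edgeR's quasi-likelihood test on recovered reads called both.

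Wnt2b, Wnt4 and Wnt9a also stood lower under Fgf. Wnt2b, which is known from the ciliary margin, was at 13.6, 10.8 and 9.93 CPM at Day 10, at 5.51, 7.84 and 8.18 CPM in Day 12 +Fgf and at 11.1, 11.0 and 12.7 CPM in Day 12 +Wnt. Day 15 tissue held 0.664, 1.58 and 1.34 CPM under Fgf and 17.6, 13.9 and 13.4 CPM under Wnt. It fell by 2.36 on the log2 scale from Day 12 to Day 15 in +Fgf tissue and ended 3.40 ± 0.21 below +Wnt tissue. The earlier fall of Wnt2b against Day 10 (-0.66 ± 0.21) was lost without Day 10 replicate 1 and without Day 12 +Fgf replicate 1, at -0.53 and -0.49. Wnt9a was at 17.1, 13.1 and 17.6 CPM at Day 10, at 6.53, 7.84 and 5.17 CPM in Day 12 +Fgf and at 19.6, 23.4 and 22.5 CPM in Day 12 +Wnt. At the later age it was at 3.1, 3.57 and 3.96 CPM in +Fgf and 18.9, 19.3 and 16.1 CPM in +Wnt tissue. Its Day 15 difference was -2.26 ± 0.15, with no overlap between the groups. Its rise from Day 10 to Day 12 +Wnt (0.45 ± 0.15) was lost without Day 10 replicate 2 (0.32) or Day 12 +Wnt replicate 2 (0.40). Wnt4 fell from 5.86, 3.94 and 5.65 CPM at Day 10 to 0.887, 0.828 and 0.575 CPM in Day 12 +Fgf and was at 0.0737, 0 and 0.283 CPM in Day 15 +Fgf, where the count of reads no longer separates low from absent. In +Wnt tissue it was at 3.52, 5.36 and 4.7 CPM at Day 12 and fell to 2.17, 2.16 and 1.82 CPM at Day 15.

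Wnt9b was the ligand that went the other way. It stood at 3.54, 2.07 and 1.22 CPM at Day 10, rose to 11.4, 10.3 and 20.2 CPM in Day 12 +Fgf, and fell to 0.189, 0.696 and 0.199 CPM in Day 12 +Wnt. The difference between the stimulations was 4.45 ± 0.36 at Day 12 (limma, Benjamini-Hochberg adjusted p = 2.8e-08). By Day 15 the +Fgf libraries had come back to 2.95, 1.92 and 1.48 CPM, against 0.186, 0.373 and 0.421 CPM in +Wnt tissue, a difference of 1.92 ± 0.36.

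Wnt5a and Wnt16, ligands known mainly for signaling that does not run through β-catenin, gained later in +Wnt tissue. Wnt5a was at 18.1, 13.7 and 17.3 CPM at Day 10, at 29.3, 33.3 and 30.5 CPM in Day 12 +Wnt and at 67.1, 68.3 and 57.5 CPM in Day 15 +Wnt, rising by 1.04 ± 0.14 between the last 2 (limma, Benjamini-Hochberg adjusted p = 5.18e-06). In +Fgf tissue it was at 19.2, 19.0 and 16.5 CPM at Day 12 and 11.4, 13.9 and 18.3 CPM at Day 15, and the fall of 0.35 was lost without any 1 of Day 12 +Fgf replicates 1 and 2 and Day 15 +Fgf replicates 1 and 2 (-0.19 to -0.33). It was also lost without the filter on low genes, with the replicate block (-0.35 in both), with median-of-ratios scaling (-0.33), in edgeR's test on recovered reads (-0.31) and with the RNA integrity covariate (-0.20). Wnt16 rose from 1.7, 1.94 and 1.68 CPM at Day 10 under both stimulations, to 4.31, 3.82 and 4.15 CPM in Day 12 +Fgf and 3.71, 3.69 and 2.58 CPM in Day 12 +Wnt, which did not differ past the threshold (0.29 ± 0.16). From there Wnt16 reached 14.6, 11.5 and 11.3 CPM in Day 15 +Wnt and returned to 1.99, 1.92 and 2.26 CPM in Day 15 +Fgf, so that the 2 changes differed by -2.72 ± 0.23.

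Wnt5b, at 49.4, 36.8 and 40.8 CPM at Day 10, fell from Day 12 to Day 15 under both stimulations. From Day 10 to Day 12 +Wnt it did not fall (means 42.3 and 49.0 CPM). A rise there was not called in the main fit, but was in edgeR's test on recovered reads (0.21) and without Day 10 replicate 1 (0.34). In +Fgf tissue it was at 26.0, 28.2 and 25 CPM at Day 12 and 12.2, 11.1 and 12.4 CPM at Day 15. In +Wnt tissue it was at 46.5, 50.7 and 49.8 CPM and then at 19.9, 19.2 and 17.4 CPM. From Day 12 to Day 15 it changed by -1.13 ± 0.09 in +Fgf and -1.37 ± 0.09 in +Wnt tissue, and the difference between those changes (0.24 ± 0.13) did not pass. The other 6 testable ligands, Wnt1, Wnt3, Wnt6, Wnt7a, Wnt10a and Wnt11, reached at most 6.04 CPM in any library. Of these, Wnt3 rose with age under both stimulations (1.04 ± 0.25 in +Fgf and 2.22 ± 0.25 in +Wnt tissue), and Wnt11 rose by 1.51 ± 0.38 in +Wnt tissue while its change in +Fgf tissue was -0.69 ± 0.38, with a difference between the changes of -2.20 ± 0.53. Wnt1 was called lower in Day 12 +Fgf than at Day 10 (-2.30 ± 0.73), a call lost without Day 10 replicate 3 (-1.94) or Day 12 +Fgf replicate 1 (-2.06).

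**Figure D3:**
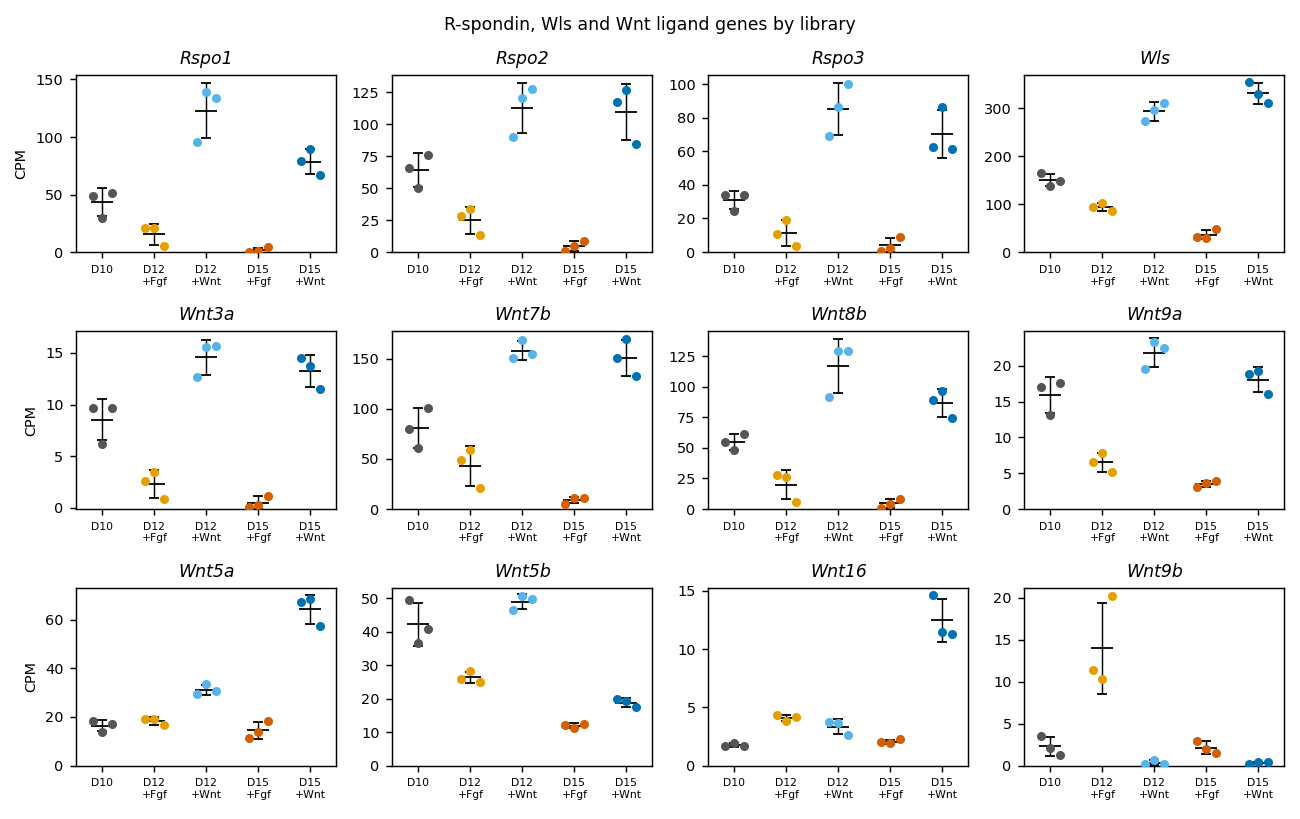
CPM of R-spondin, Wls and Wnt ligand genes in each library, with the mean as a bar and the SD (n = 3) as whiskers. Rspo1 to Rspo3, Wls, Wnt3a, Wnt7b, Wnt8b and Wnt9a show every +Fgf library below every +Wnt library of the same day; Wnt9b shows the opposite order, with a peak of 20.2 CPM in Day 12 +Fgf.

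Because read counts grow with transcript length, ligands were ranked as CPM per kilobase of exon. At Day 10 Wnt7b (16.5 ± 4.04, SD, n = 3), Wnt5b (16 ± 2.43) and Wnt8b (15.8 ± 1.81) led and were within each other's spread, and Wnt9a (4.78 ± 0.738) followed at a distance larger than that spread. In Day 12 +Wnt tissue Wnt8b (33.6 ± 6.33) and Wnt7b (32.3 ± 1.89) led without separating, and Wnt7b came first there when the longest transcript set the length. In Day 15 +Wnt tissue Wnt7b (30.9 ± 3.71) stood above Wnt8b (24.9 ± 3.24), with Wnt5a next (8.22 ± 0.760). In Day 15 +Fgf tissue the first was Wnt5b at only 4.49 ± 0.261 CPM per kilobase, and Wnt5a, Wnt7b and Wnt8b came next between 1.30 and 1.86 without separating. In Day 12 +Fgf tissue Wnt5b (9.95 ± 0.602) and Wnt7b (8.78 ± 4.08) were not separated, and the longest transcript as length put Wnt7b first here too.

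Wls (chromosome 3, 159839672 to 159938664, mm10), the carrier on which secretion of Wnt proteins depends, moved in the same direction as most ligands. It stood at 165, 139 and 149 CPM at Day 10, at 93.9, 103 and 86.2 CPM in Day 12 +Fgf and at 274, 296 and 311 CPM in Day 12 +Wnt. The Day 15 values were 32.7, 31.0 and 48.4 CPM in +Fgf and 354, 329 and 311 CPM in +Wnt tissue, with no overlap between any stimulated group and Day 10. Its difference at Day 15 was -3.17 ± 0.12 (limma, Benjamini-Hochberg adjusted p = 1.19e-12). Porcn, the enzyme that adds the lipid, ran between 12.5 and 26.0 CPM over all libraries and rose with age under both stimulations, by 0.48 ± 0.08 in +Fgf and 0.70 ± 0.08 in +Wnt tissue.

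Of the members that were lower under Fgf at Day 15, Rspo1 and Rspo2 differed most. Rspo1 stood at 49.3, 29.7 and 51.7 CPM at Day 10, at 21.2, 21.0 and 5.24 CPM in Day 12 +Fgf and at 95.5, 139 and 134 CPM in Day 12 +Wnt. By Day 15 it stood at 0.516, 1.24 and 4.31 CPM in +Fgf and 79.5, 89.3 and 67.3 CPM in +Wnt tissue. Rspo2 stood at 66.0, 50 and 76.3 CPM at Day 10, at 28.8, 33.6 and 13.3 CPM in Day 12 +Fgf and at 90.1, 120.1 and 127 CPM in Day 12 +Wnt. Day 15 tissue held 0.959, 4.74 and 9.33 CPM under Fgf and 117, 126 and 84.7 CPM under Wnt. Rspo3 stood at 34.0, 24.5 and 34.2 CPM at Day 10, at 10.6, 19.2 and 3.58 CPM in Day 12 +Fgf and at 69.1, 86.2 and 100.0 CPM in Day 12 +Wnt. The Day 15 values were 0.885, 2.27 and 8.69 CPM in +Fgf and 62.5, 86.5 and 61.3 CPM in +Wnt tissue. For all 3 the means of the 5 groups fell in the same order: Day 12 +Wnt, Day 15 +Wnt, Day 10, Day 12 +Fgf, Day 15 +Fgf. No R-spondin was called lower in Day 15 +Wnt than in Day 12 +Wnt, and the Rspo2 means there were close (109 and 113 CPM). For all 3, Day 12 +Fgf replicate 3 and Day 15 +Fgf replicate 1 were the lowest libraries of their groups.

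At Day 15 the difference was -5.45 ± 0.51 for Rspo1 (limma, Benjamini-Hochberg adjusted p = 7.16e-08), -4.78 ± 0.50 for Rspo2 and -4.53 ± 0.56 for Rspo3, and at Day 12 it was -3.16 ± 0.51, -2.23 ± 0.50 and -3.17 ± 0.56. Against Day 10 the 3 genes were called lower in Day 12 +Fgf (-1.64 ± 0.51, -1.42 ± 0.50 and -1.72 ± 0.56), and none of these calls held without Day 12 +Fgf replicate 3, when the values were -0.99, -1.01 and -1.08. The Rspo2 value was not called either without Day 10 replicate 1 (-1.39) or Day 10 replicate 3 (-1.28). Rspo1 and Rspo3 were called higher in Day 12 +Wnt than at Day 10 (1.51 ± 0.51 and 1.45 ± 0.56). That call was lost for Rspo1 without Day 10 replicate 2 (1.26), Day 12 +Wnt replicate 2 (1.42) or Day 12 +Wnt replicate 3 (1.44), and for Rspo3 without any 1 of the Day 10 libraries or of Day 12 +Wnt replicates 2 and 3 (1.29 to 1.53). From Day 12 to Day 15 in +Fgf tissue Rspo1 fell by 2.93 and Rspo2 by 2.59 on the log2 scale, while the fall of 1.64 for Rspo3 was lost without Day 12 +Fgf replicate 1 or 2 or Day 15 +Fgf replicate 1 or 2 (-0.97 to -1.53). Rspo4 reached at most 1.61 CPM in any library and differed by -1.99 ± 0.31 between Day 15 +Fgf and Day 15 +Wnt tissue. It was testable only because of the Day 15 +Wnt libraries, so this difference was not taken as support.

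Markers of other cells differed between the same groups. Emx1, Emx2, Lmx1a, Lhx5 and Dmrta2, markers of cortex and hem, were each lower in +Fgf than in +Wnt tissue at both ages, by 2.09 to 2.96 on the log2 scale at Day 12 and 2.77 to 4.46 at Day 15. Against Day 10, all of these but Emx1 (-2.15 ± 0.92) were called lower in Day 12 +Fgf, and only Dmrta2 was called higher in Day 12 +Wnt (0.91 ± 0.29). From Day 12 to Day 15 +Fgf, Emx2 and Lmx1a were called lower and Emx1, Lhx5 and Dmrta2 did not pass. Emx2 was at 32.5, 29.9 and 10.9 CPM in Day 12 +Fgf and at 0.811, 8.52 and 19.5 CPM in Day 15 +Fgf, with the same lowest libraries as the R-spondins. The lowest Day 12 +Fgf library was also replicate 3 for Emx1, Lmx1a and Dmrta2, and replicate 1 for Lhx5.

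The 4 markers of undifferentiated ES cells were all called lower in Day 12 +Fgf than at Day 10, with sums of 3.00 to 13.6 CPM against 38.8 to 49.7 CPM. Their sum was 16.6 to 45.7 CPM in Day 12 +Wnt, 0.295 to 13 CPM in Day 15 +Fgf and 8.81 to 47.1 CPM in Day 15 +Wnt. The 5 ciliary margin markers summed to 1068 to 1167 CPM at Day 10, 735 to 850.3 CPM in Day 12 +Fgf and 1593 to 1731 CPM in Day 12 +Wnt, and to 453 to 574 CPM in Day 15 +Fgf and 2050.0 to 2239 CPM in Day 15 +Wnt, where 4 of the 5 differed in that direction. The part of any of these cells in the values of the R-spondins and ligands was not tested.

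The Frizzled receptors were measurable as a whole family of 10 and split between the stimulations. Fzd5 (chromosome 1, 64730558 to 64737751, mm10), a receptor known for its expression in the eye field and neural retina, differed most of all members between the stimulations at Day 15. It stood at 161, 197 and 169 CPM at Day 10, at 244, 184 and 244 CPM in Day 12 +Fgf and at 23.1, 24.8 and 24.0 CPM in Day 12 +Wnt. By Day 15 it stood at 278, 255 and 244 CPM in +Fgf and 4.09, 4.03 and 5.68 CPM in +Wnt tissue. The Day 15 difference of 5.74 ± 0.12 (limma, Benjamini-Hochberg adjusted p = 8.4e-16) came with no overlap between the libraries. Its rise at Day 12 +Fgf (0.34 ± 0.12) was small and was lost when Day 10 replicate 1 or 3 or Day 12 +Fgf replicate 1 or 3 was left out (0.27 to 0.32).

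Fzd4 and Fzd9 lay on the other side. Fzd4, which is known as the receptor of norrin, was at 50.7, 57.6 and 49.0 CPM at Day 10, at 20.2, 17.8 and 15.3 CPM in Day 12 +Fgf and at 108, 97.4 and 112 CPM in Day 12 +Wnt. Day 15 tissue held 8.19, 9.34 and 9.82 CPM under Fgf and 44.7, 43.0 and 41.2 CPM under Wnt. It rose by 1.01 ± 0.10 under Wnt stimulation at Day 12 and fell from there under both by Day 15, with a difference of -2.20 ± 0.10. Fzd9 rose from 3.54, 2.94 and 4.97 CPM at Day 10 to 12.1, 12.7 and 12.4 CPM in Day 12 +Wnt and 20.8, 25.6 and 26.0 CPM in Day 15 +Wnt. In +Fgf tissue it was at 4.18, 4.08 and 2.56 CPM at Day 12 and 4.28, 4.4 and 6.36 CPM at Day 15. Fzd10 was at 28.5, 31.0 and 31.2 CPM at Day 10, and in +Wnt tissue at 25.3, 27.3 and 36.8 CPM at Day 12 and 29.4, 33.1 and 27.4 CPM at Day 15, a change of 0.02 ± 0.13 that did not pass. Under Fgf it fell from 18.4, 18.6 and 17.9 CPM to 7.45, 6.87 and 9.4 CPM.

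Fzd6 changed sides with age. It was at 28.3, 29.0 and 28.0 CPM at Day 10. At Day 12 it was higher in +Fgf (34.9, 28.4 and 31.0 CPM) than in +Wnt tissue (20.1, 19.4 and 18.6 CPM), a difference of 0.68 ± 0.12, and at Day 15 lower (12.5, 8.58 and 11.4 CPM against 23.1, 18.2 and 20.1 CPM), a difference of -0.91 ± 0.12. Fzd8, at 21.6, 22.9 and 23.2 CPM at Day 10, was lower in +Fgf at Day 12 (16.7, 16.4 and 16.3 CPM against 35.0, 29.7 and 33.8 CPM). At Day 15 it was at 13.6, 15.7 and 13.7 CPM against 12.8, 12.5 and 14.2 CPM, a difference of 0.12 ± 0.09 that did not pass.

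Fzd7 fell from Day 12 to Day 15 under both stimulations, by 0.93 in +Fgf and 1.02 in +Wnt tissue on the log2 scale. It stood at 123, 108 and 108 CPM at Day 10, at 96.4, 102 and 93.0 CPM in Day 12 +Fgf and at 153, 141 and 133 CPM in Day 12 +Wnt. At Day 15 the libraries held 46.8, 53.8 and 52.4 CPM under Fgf and 67.3, 70.1 and 72 CPM under Wnt. Fzd1, Fzd2 and Fzd3, at 52.9 to 266 CPM over all libraries, differed between the stimulations by -0.41 to 0.46 at either age.

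Per kilobase of exon, Fzd1 was the leading Frizzled at Day 10 (38.2 ± 2.3) and in Day 15 +Wnt tissue (22.3 ± 0.501), whereas Fzd5 led in Day 12 +Fgf (32.4 ± 5.06) and Day 15 +Fgf tissue (37.4 ± 2.46) and came last of the 10 in Day 15 +Wnt tissue at 0.665 CPM per kilobase. In Day 12 +Wnt tissue Fzd7 (31.4 ± 2.23) and Fzd1 (31.3 ± 0.585) did not separate.

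Of the co-receptors, Lrp5 moved and Lrp6 kept within a narrow range. Lrp5 was at 61.2, 60.6 and 59.8 CPM at Day 10, at 93.1, 78.0 and 97.0 CPM in Day 12 +Fgf and at 31.6, 33.9 and 29.4 CPM in Day 12 +Wnt. The Day 15 values were 108, 107 and 102 CPM in +Fgf and 30.9, 30.9 and 35.0 CPM in +Wnt tissue, so that every +Fgf library lay above, and every +Wnt library below, the Day 10 range. Its difference was 1.49 ± 0.08 at Day 12 and 1.70 ± 0.08 at Day 15 (limma, Benjamini-Hochberg adjusted p = 6.33e-12). Its later rise in +Fgf tissue (0.24 ± 0.08) was lost without Day 12 +Fgf replicate 2 (0.15). Lrp6 ran between 108 and 153 CPM over all libraries and differed between the stimulations by 0.02 ± 0.07 at Day 12 and 0.11 ± 0.07 at Day 15, neither past the threshold. Its call as lower in Day 12 +Wnt than at Day 10 (-0.18 ± 0.07) was lost without Day 10 replicate 2 (-0.12) or 3 (-0.18), without Day 12 +Wnt replicate 2 or 3 (-0.15 each), with quantile normalization (-0.082) and with the RNA integrity covariate (-0.15).

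The receptor tyrosine kinases Ror1 and Ror2, which bind Wnt5a, lay on opposite sides at Day 15. Ror2 was at 33.3, 30.8 and 34.0 CPM at Day 10, at 9.76, 11.8 and 8.31 CPM in Day 12 +Fgf and 2.95, 5.84 and 7.77 CPM in Day 15 +Fgf, against 29.1, 27.8 and 31.9 CPM in Day 12 +Wnt and 20.2, 20.4 and 22.4 CPM in Day 15 +Wnt. The difference at Day 15 was -1.97 ± 0.22. Ror1, at 22.8, 22.3 and 22.8 CPM at Day 10, fell between Day 12 and Day 15 from 15.3, 17.7 and 13.4 CPM to 10.3, 9.75 and 9.05 CPM in +Fgf tissue. In +Wnt tissue it fell from 14.3, 17.6 and 15.8 CPM to 4.09, 4.33 and 2.67 CPM, which left a difference of 1.35 ± 0.15. At Day 12 Ror1 differed by -0.05 ± 0.15, which did not pass. Ryk, a receptor without active kinase, ran between 105 and 140.0 CPM and changed by -0.16 to 0.29 in the 6 comparisons.

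Among the secreted inhibitors, Sfrp2 was high in +Fgf and low in +Wnt tissue. It stood at 657, 679 and 689.7 CPM at Day 10, at 1701, 1557 and 1812 CPM in Day 12 +Fgf and at 88.8, 83.0 and 78.0 CPM in Day 12 +Wnt. By Day 15 it stood at 1028, 908 and 867 CPM in +Fgf and 49.5, 47.7 and 50.9 CPM in +Wnt tissue. The difference was 4.34 ± 0.06 at Day 12 and 4.23 ± 0.06 at Day 15 (limma, Benjamini-Hochberg adjusted p = 1.36e-17). Sfrp1, its close relative, lay the other way round. It stood at 320.1, 312 and 271 CPM at Day 10, at 122, 142 and 119.7 CPM in Day 12 +Fgf and at 441, 446 and 429 CPM in Day 12 +Wnt. Day 15 tissue held 91.1, 143 and 125 CPM under Fgf and 409, 376 and 389 CPM under Wnt. Its difference was -1.78 ± 0.11 at Day 12 and -1.73 ± 0.11 at Day 15. Per kilobase of exon, Sfrp2 exceeded Sfrp1 at Day 10 (314 ± 7.86 against 68.9 ± 5.99) and in Day 15 +Fgf tissue (434 ± 38.9 against 27.4 ± 6.0), and fell below it in Day 15 +Wnt tissue (22.9 ± 0.745 against 89.5 ± 3.80).

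Wif1 (chromosome 10, 121033960 to 121100650, mm10), an inhibitor that binds Wnt ligands directly, rose in +Wnt tissue from 22.7, 20.9 and 20.2 CPM at Day 10 to 57.6, 61.4 and 61.0 CPM at Day 12 and 162, 131 and 119 CPM at Day 15. In +Fgf tissue it was at 32.2, 35.1 and 30.2 CPM at Day 12 and fell to 3.24, 6.73 and 12.8 CPM at Day 15. The change from Day 12 to Day 15 thus differed by -3.43 ± 0.40 (limma, Benjamini-Hochberg adjusted p = 3.28e-06), the largest such difference among the members. Frzb, at 10.6, 8.49 and 10.1 CPM at Day 10, fell from Day 12 to Day 15 under both stimulations. Fgf-stimulated tissue went from 11.7, 10.3 and 7.28 CPM to 1.47, 1.65 and 3.82 CPM, and in +Wnt tissue from 7.42, 6.68 and 8.14 CPM to 3.23, 4.47 and 3.65 CPM. The Day 15 groups overlap, and the call of their difference (-0.74 ± 0.25) was lost without Day 15 +Fgf replicate 1 (-0.52), Day 15 +Fgf replicate 2 (-0.58) or Day 15 +Wnt replicate 2 (-0.62).

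Dkk3 (chromosome 7, 112116017 to 112159057, mm10), a divergent Dkk protein that is not a clear Lrp antagonist, was like Sfrp2 higher in +Fgf than in +Wnt tissue, but unlike Sfrp2 rose from Day 12 to Day 15. It stood at 102, 101 and 114 CPM at Day 10, at 451, 437 and 532 CPM in Day 12 +Fgf and at 13, 13.2 and 14.8 CPM in Day 12 +Wnt. The Day 15 values were 1071, 997 and 949 CPM in +Fgf and 40.1, 45.5 and 37.7 CPM in +Wnt tissue. It therefore rose from Day 12 to Day 15 under both stimulations, by 1.09 ± 0.08 and 1.57 ± 0.08, while the +Fgf libraries stayed far above the +Wnt libraries (4.61 ± 0.08 at Day 15, limma, Benjamini-Hochberg adjusted p = 1.17e-16).

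Dkk1, the classical Lrp5 and Lrp6 antagonist and a known target of β-catenin, showed a passing rise under Wnt stimulation. It stood at 12.3, 9.76 and 14.7 CPM at Day 10, at 31.2, 28.5 and 34.1 CPM in Day 12 +Wnt and at 2.48, 2.68 and 3.58 CPM in Day 15 +Wnt, with no overlap between the 3. In +Fgf tissue it was at 9.57, 10.1 and 15.5 CPM at Day 12 and 5.09, 4.6 and 5.44 CPM at Day 15, so that its difference between the stimulations turned from -1.42 ± 0.18 to 0.75 ± 0.18, and the change with age differed by 2.17 ± 0.26 (limma, Benjamini-Hochberg adjusted p = 3.6e-06). Dkk2 was at 1.09, 1.67 and 0.535 CPM at Day 10 and rose in Day 12 tissue of both kinds, to 2.22, 4.46 and 2.49 CPM in +Fgf and 2.77, 2.64 and 3.31 CPM in +Wnt. By Day 15 it had fallen to 0.59, 0.618 and 1.84 CPM in +Fgf and risen to 6.76, 5.59 and 5.61 CPM in +Wnt tissue, a rise of 0.97 ± 0.34 that was not called without Day 12 +Wnt replicate 2 (0.91), Day 15 +Wnt replicate 1 (0.89) or with quantile normalization (0.34). Kremen1, the Dkk receptor, rose at Day 12 in both (0.79 ± 0.07 and 0.38 ± 0.07) and at Day 15 was at 52.4 to 61.9 CPM in +Fgf and 57.5 to 59.5 CPM in +Wnt tissue.

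**Figure D4:**
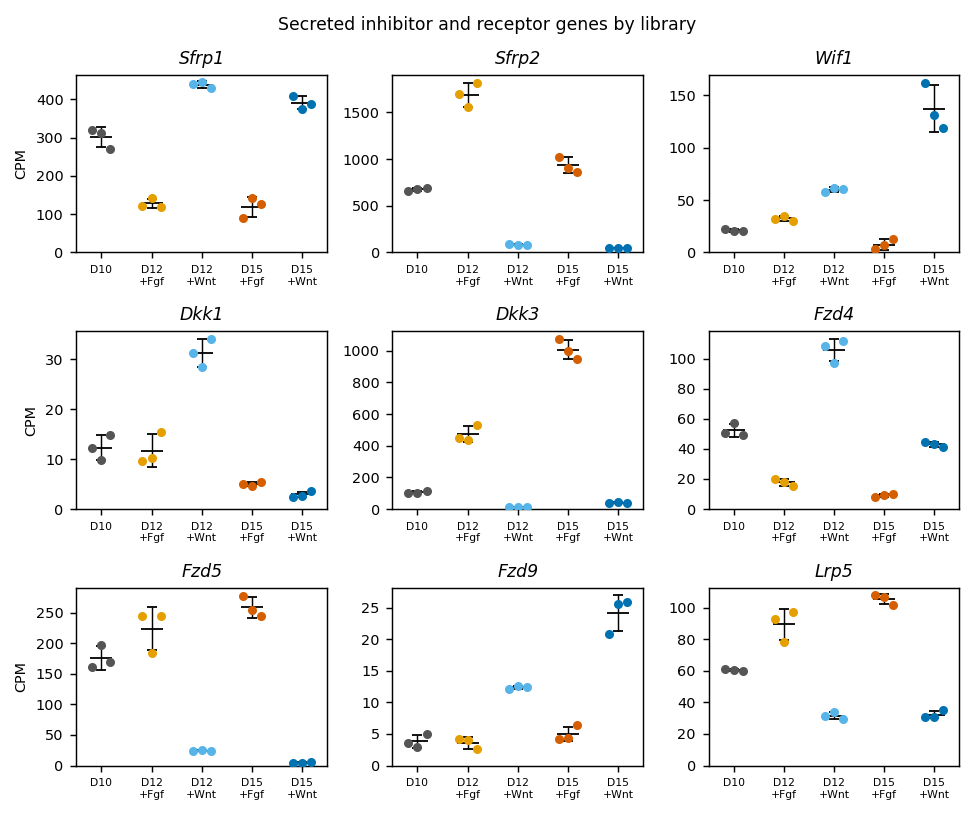
CPM of secreted inhibitor and receptor genes in each library, with the mean as a bar and the SD (n = 3) as whiskers. Sfrp2, Dkk3, Fzd5 and Lrp5 are higher and Sfrp1, Wif1, Fzd4 and Fzd9 lower in the +Fgf libraries at Day 15; Dkk1 peaks between 28.5 and 34.1 CPM in Day 12 +Wnt.

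The change from Day 12 to Day 15 differed between the stimulations for 27 of the 45 testable members, 7 of them with the higher change in +Fgf and 20 with the lower, where 47.9% of all genes tested were called (27% higher, 20.9% lower). Wnt16, Wif1 and Dkk2 were called in opposite directions, down in +Fgf and up in +Wnt tissue, as was Wnt5a, whose fall in +Fgf tissue was lost under the alternatives named above. Rspo1, Rspo2, Wnt2b, Wnt3a, Wnt7b, Wnt9a, Wnt9b, Wls, Fzd6 and Fzd10 fell in +Fgf tissue while their change in +Wnt tissue did not pass. Dkk1 and Ror1 fell in both and further in +Wnt tissue, and Fzd5 fell there by 2.33 while its change in +Fgf tissue did not pass (difference 2.54 ± 0.17). The difference for Wnt3a (-1.65 ± 0.59) was lost without Day 12 +Fgf replicate 1 or 2, Day 12 +Wnt replicate 1, Day 15 +Fgf replicate 1 or 2 or Day 15 +Wnt replicate 1 or 2 (-1.21 to -1.62), and that for Wnt9a (-0.55 ± 0.21) without the same libraries or Day 12 +Wnt replicate 3 (-0.41 to -0.57). For Rspo3 (-1.36 ± 0.79) and Wnt8b (-1.81 ± 0.80) the difference did not pass, but it did without Day 12 +Fgf replicate 3 (-2.00 and -2.51) or Day 15 +Fgf replicate 3 (-2.15 and -2.45). That of Wnt8b also passed with all libraries kept, in edgeR's test on recovered reads (-1.73) and with quantile normalization (-2.01). Of 8 neural crest and mesenchyme markers, 6 were measurable and Foxd3 was under 1 CPM throughout. They summed to 93.5 to 121 CPM in Day 12 +Wnt and 329 to 378 CPM in Day 15 +Wnt, against 101 to 177 CPM and 52.9 to 77.7 CPM in +Fgf tissue. The 5 choroid plexus markers, which share Otx2 with the pigment epithelium list, went from 278 to 283 CPM to 1059 to 1559 CPM in +Wnt tissue. In +Fgf tissue they went from 93.5 to 122 CPM to 141 to 263 CPM, where 4 of the 5 were also called higher. Their part in these changes was not tested.

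**Figure D5:**
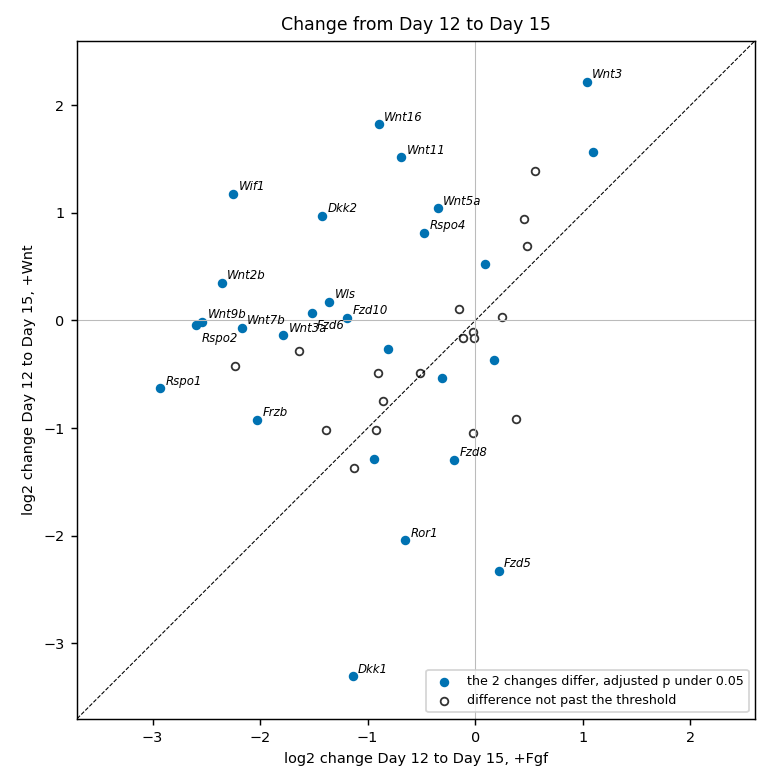
log2 change from Day 12 to Day 15 in +Fgf tissue (horizontal) against the same change in +Wnt tissue (vertical) for the 45 testable members, with equal change on the dashed line; filled points are the 27 whose changes differed at an adjusted p below 0.05 (limma interaction, 3 libraries a group), and those differing by at least 1 are named. Wif1, Dkk2, Wnt16 and Wnt5a lie at the upper left, where the change is negative in +Fgf and positive in +Wnt tissue, and Dkk1 and Fzd5 at the bottom.

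The RNA integrity number of the study's sample table was tried as a covariate. It was lower in every Day 15 +Fgf library than in any Day 12 or Day 15 +Wnt library, so that integrity and age cannot be told apart in +Fgf tissue, nor integrity and stimulation at Day 15. It was also lower in every Day 10 library than in any Day 12 library. Integrity therefore cannot be told apart from age and stimulation between Day 10 and Day 12 either. There the covariate left 27 rather than 33 members called for Day 12 +Fgf, and 20 rather than 27 for Day 12 +Wnt. With it, 16 rather than 31 members were called between Day 12 and Day 15 +Fgf, and 16 rather than 27 for the difference between the changes. The calls lost included those of Rspo1, Rspo2, Wnt3a, Wnt7b and Wnt8b between Day 12 and Day 15 +Fgf and those of Rspo1, Rspo3 and Wnt7b between Day 10 and Day 12 +Wnt, and the Rspo3 value between Day 12 and Day 15 +Fgf turned from -1.64 to 0.34. Between the stimulations 33 members were then called at Day 12 and 30 at Day 15, without Wnt9b at Day 15 (0.86).

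Of 60 further genes of the pathway, 57 were testable. Between the stimulations 13 were higher and 26 lower in +Fgf tissue at Day 12, where 51.5% of all genes were called, and 16 higher and 27 lower at Day 15, where 68.7% were, with medians of -0.11 and -0.14. The partners of the R-spondins differed among themselves. Lgr5, an R-spondin receptor, was at 29.9, 44.1 and 32.2 CPM at Day 10. By Day 15 it stood at 18.1, 17.8 and 17.8 CPM in +Fgf and 4.96, 7.23 and 5.19 CPM in +Wnt tissue, a difference of 1.60. Rnf43, the ligase that R-spondins hold in check, was at 0.442 to 1.27 CPM in Day 15 +Fgf and 6.66 to 8.44 CPM in Day 15 +Wnt, a difference of -3.02. Axin2, the standard readout of β-catenin activity, was at 76.3, 82.9 and 85.2 CPM at Day 10. Day 15 tissue held 10.5, 13 and 23.7 CPM under Fgf and 183, 182 and 164 CPM under Wnt, a difference of -3.54. The 14 genes of the cytoplasmic relay, among them Ctnnb1, Gsk3b and the Dvl genes, held no called change of at least 1 between the stimulations at either age, beside 12.7% of all genes at Day 12 and 19.7% at Day 15. Smaller changes were called. In +Fgf tissue 3 of the 14 were higher and 8 lower at Day 12, and 6 higher and 4 lower at Day 15. Of all genes, 51.5% and 68.7% were called.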

How the data were processed

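RNA-Seq was done on 15 libraries in 5 groups with 3 replicates each. According to the study's methods and the submitters' processing notes, stranded mRNA libraries were demultiplexed with bcl2fastq (1.8.4), inspected with FastQC (0.10.1), aligned to mm10 with TopHat2 (2.0.8b), assembled and counted with Cufflinks (2.1.1) tools and scaled with edgeR (3.2.4). The deposited values are a signal, read counts scaled between libraries by the authors (CPM), and whole read counts were recovered from them within a tolerance of 0.01 (100% of values). Entries with at least 1 CPM in at least 3 libraries were kept, a pseudocount of 0.3 was added, and log2 values of all 15 libraries were fitted as 5 group means with limma (3.58.1, trend, Benjamini-Hochberg adjustment, threshold 0.05) in R (4.3.3). limma was used because the deposited values are scaled, and edgeR's quasi-likelihood test (4.0.16) on the recovered counts served as an alternative (for example 9318 genes called between the stimulations at Day 15, against 9505 by limma). The fits were also run on simulated counts with the same dispersion for every gene and known changes in Day 15 +Wnt only. That run does not show how they perform for members with a wider spread, such as Rspo1 in Day 12 +Fgf. The p-values measure the spread among these biological replicates of 1 cell line.

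Members were given with every library when their highest group mean was at least 5 CPM and they were called with a log2 change of at least 1 in at least 1 of 6 comparisons (31 of 52). Other members, and the pathway genes named beside them, were named after their values were seen. The members and lists were chosen with earlier results of these data known. One gene of the cortex and hem list is not reported here. Levels per kilobase used the summed exon length in GENCODE for mm10. Alternatives were other pseudocounts (0.1 and 1), no filter, median of ratios, quantile normalization, a replicate block, the RNA integrity number as a covariate, and leaving out each library. Tables were made with pandas (2.3.3) in Python (3.11.15), and plots with matplotlib (3.10.9).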

Additional observations from a re-analysis of the deposited data

Results flagged for a closer look

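Each value here is the log2 change from Day 12 to Day 15 in +Fgf tissue minus that in +Wnt tissue, picked out because a test of the difference itself (limma's interaction term over 3 libraries a group, Benjamini-Hochberg adjusted over all genes) passed, as it did for 47.9% of all genes tested.

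Among ligands and their processing, levels changed downward relative to +Wnt tissue by -2.72 for Wnt16, -2.71 for Wnt2b, -2.53 for Wnt9b, -2.2 for Wnt11, -2.1 for Wnt7b, -1.65 for Wnt3a, -1.53 for Wls, -1.39 for Wnt5a, -1.18 for Wnt3 and -0.546 for Wnt9a. Wnt3 rose under both stimulations, by 1.04 in +Fgf and 2.22 in +Wnt tissue. Wnt9b fell by 2.54 in +Fgf tissue, after its peak at Day 12, and its change in +Wnt tissue was -0.01. With the RNA integrity covariate the differences of Wnt3 (-1.38), Wnt3a (-0.35), Wnt7b (-1.34), Wnt9a (-0.51) and Wnt11 (-1.44) lost the call. That of Wnt3 was also lost with quantile normalization (-0.86), and that of Wnt9a with a pseudocount of 1 (-0.46). Without the filter on low genes, Wnt3a (-1.65) and Wnt9a (-0.55) lost it too.

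Among receptors the values were 2.54 for Fzd5, 1.4 for Ror1, 1.09 for Fzd8, 0.538 for Fzd3, 0.353 for Fzd4, 0.223 for Fzd2, -1.22 for Fzd10 and -1.59 for Fzd6. Fzd4 fell under both stimulations, and its small difference was lost without Day 12 +Fgf replicate 2 or 3, Day 12 +Wnt replicate 1 or 3, Day 15 +Fgf replicate 2 or 3 or Day 15 +Wnt replicate 2 or 3 (0.25 to 0.36). That of Fzd2 was lost without Day 12 +Fgf replicate 1 or 2, without any 1 of the Day 12 +Wnt libraries, and without replicate 1 or 2 of either Day 15 group (0.17 to 0.24). It was also lost with all libraries kept: without the filter (0.22), with median of ratios (0.20), quantile normalization (0.17) or the replicate block (0.22). The RNA integrity covariate (0.14) and edgeR's test on recovered reads (0.19) removed it too.

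Among inhibitors and R-spondins they were -3.43 for Wif1, -2.39 for Dkk2, -1.1 for Frzb, -0.477 for Dkk3, -0.435 for Kremen1, 2.17 for Dkk1, -2.29 for Rspo1, -2.55 for Rspo2 and -1.29 for Rspo4. Frzb lost the call without Day 12 +Fgf replicate 1 (-0.96). Rspo4, at most 1.61 CPM in any library, lost it without Day 12 +Fgf replicate 1 or 2, Day 12 +Wnt replicate 3 or Day 15 +Wnt replicate 3 (-0.96 to -1.20). Rspo4 was also testable only because of the Day 15 +Wnt libraries, where it was highest, so its flag was not taken as support.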

How the results depend on the processing

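Over 4680 refits of single members, 4418 kept their side of the threshold, and also their direction where they were called. Of the rest, 197 lost the call, 61 gained one and 4 turned direction with a call before or after. Turns of direction without a call on either side were not counted. With the RNA integrity number as a covariate, 16 members (2 higher, 14 lower) and 15 other pathway genes (7 higher, 8 lower) were called between Day 12 and Day 15 +Fgf, against 31 and 36 without it, and 3591 rather than 7899 of all genes. The difference between the changes was then called for 16 members (6 higher, 10 lower), 9 pathway genes (2 higher, 7 lower) and 3842 genes, against 27, 26 and 6636, and Day 15 +Fgf differed from +Wnt in 25 pathway genes (8 higher, 17 lower) against 43. The share of higher calls moved from 25.9% to 37.5% for the members' difference between changes, and for the pathway genes from 33.3% to 46.7% (Day 12 to Day 15 +Fgf) and from 38.5% to 22.2% (difference between changes). The same covariate turned Frzb (0.27 for Day 15 +Fgf minus +Wnt and 0.039 for the difference between changes), Rspo3 (0.34 between Day 12 and Day 15 +Fgf) and Wnt6 (0.025 for Day 15 +Fgf minus +Wnt). The cause was not tested. With the longest transcript as length, Wnt7b stood at 23.7 CPM per kilobase at Day 10 and 44.5 at Day 15 +Wnt, and Wnt5b at 11.1 at Day 12 +Fgf, below Wnt7b, and 5.02 at Day 15 +Fgf; Wnt8b at Day 12 +Wnt (34.6) then also stood below Wnt7b.

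Without single libraries, members called ranged from 24 to 33 for Day 12 +Fgf and from 23 to 27 for Day 12 +Wnt against Day 10, from 29 to 31 and 24 to 27 for Day 12 to Day 15 in +Fgf and +Wnt, from 31 to 33 and 36 to 41 between the stimulations at Day 12 and Day 15, and from 22 to 30 for the difference between changes. Replicate numbers did not pair the samples: deviations of same-numbered libraries of different groups correlated between -0.253 and 0.245 over 30 pairs. Libraries with different numbers correlated between -0.334 and 0.292 over 60 pairs. For 6 of 15 libraries the mean correlation with libraries of other groups was highest for their own number. With the replicate block, 34, 27, 30, 27, 33, 39 and 24 members were called in the same order, Wnt5a (Day 12 to Day 15 +Fgf) and the differences between changes of Wnt9a, Fzd4 and Fzd2 lost the call, and Lrp6 gained one (Day 12 +Fgf against Day 10, -0.16). At the depth of these libraries 3 reads are 0.186 to 0.229 CPM, so that levels of Wnt4 and Wnt3a in Day 15 +Fgf libraries at or below it cannot be told from 0.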
